A study of Mus musculus with 12 samples.

Results

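The comparison μ-g v.s. control set MLO-Y4 cells kept for 48 h at the levitation position inside the bore of a superconducting magnet against MLO-Y4 cells kept for 48 h in an incubator outside the magnet. It was formed from the treatment label and held 6 of the 12 arrays of the study, 3 of μ-g and 3 of control, with all 19938 genes that could be given 1 symbol. MLO-Y4 is a clonal mouse line with the branched shape of osteocytes, the cells that sit inside bone matrix and sense load, and it came from the long bone of a mouse aged 14 days that carried the large T antigen of simian virus as a transgene driven by the osteocalcin promoter. All groups were this 1 line, fed with serum and held at the same temperature and carbon dioxide, and the other 6 arrays were of cells at the 1-g and the 2-g positions of the bore. At the μ-g position the force of the field gradient on water opposes gravity, at the 1-g position the field is strong without a gradient, and at the 2-g position the force adds to gravity. The field, the gradient, the apparent gravity and the culture space differed together between μ-g and control, so that their parts in any difference cannot be told apart. Expression was read from Affymetrix Mouse Gene 1.0 ST arrays as log2 signals after RMA, on which a difference of 1 is a change of 2-fold. Log2 fold changes (FC), each with a standard error (SE), are μ-g minus control. The words rose and fell are kept for genes with an adjusted p under 0.05 in limma, whose fit of the 4 group means took all 12 arrays and whose adjustment ran over all genes. The labels call the samples biological replicates without saying whether they were separate cultures, so p-values measure only the spread between these samples, which may be technical.

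The markers of the line were partly present. Of the osteocyte and osteoblast markers, Pdpn (12.29 in μ-g and 12.19 in control), Gja1 (12.04 in μ-g and 12.12 in control), Col1a1 (9.97 in μ-g and 9.85 in control) and Alpl (10.95 in μ-g and 10.72 in control) were among the brighter genes, above 9.57 in control. The late osteocyte genes Dmp1, Phex and Mepe were among the dimmest genes, under 6.01 in control, at 5.67, 5.40 and 5.15 in μ-g and 5.65, 5.42 and 5.07 in control. Sost had 7.29 in μ-g and 7.35 in control. Of the markers of other cell types, Ptprc and Adgre1 of macrophages, Kdr of endothelium, Adipoq of adipocytes and Acan of cartilage were as dim, while Cd68, Fabp4 and Sox9 were above 9.57. None of the 25 measured markers passed the test, and 3 of them had an unadjusted p under 0.05, Csf1r of macrophages (−0.24, unadjusted p = 0.00142 and adjusted p = 0.0832 in limma), Alpl (0.23, 0.0272 and 0.275) and Sox9 (−0.18, 0.0464 and 0.345). In such bulk RNA fewer cells of a type and less RNA per cell cannot be told apart. Across genes, which do not count as independent replicates, Pearson's r was 0.997 to 0.998 between arrays of the same group and 0.995 to 0.998 between μ-g and control arrays.

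Cells sense oxygen through hypoxia-inducible factors, pairs of an unstable alpha subunit (HIF-1α from Hif1a, or HIF-2α from Epas1) and the stable partner ARNT. At normal oxygen, prolyl hydroxylases of the Egln family mark the alpha subunit, the product of Vhl binds the mark and the subunit is degraded. At low oxygen the pair accumulates and binds the short DNA motif ACGTG near genes for glycolysis, mitochondrial remodelling, acid export and vessel growth, and Egln1 itself is one of these genes. Osteocytes lie far from vessels, and the pathway is known to act in bone.

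Of the 77 genes that fell in μ-g, 61 had a RefSeq promoter window (GRCm38.p6, 250 bases before to 50 after the start of the gene), and 47.5% of those windows held ACGTG or its reverse complement CACGT. The share was 26% in the 73 windows of the genes that rose and 24.4% in the 15563 windows of all genes tested. The windows of 4 genes that fell are printed because they carry the motif beside large falls, with ACGTG and CACGT in capitals. The windows lie at chr7:138909457-138909756 on the minus strand for Bnip3, chr7:30183921-30184220 on the plus strand for Cox7a1, chr9:121857747-121858046 on the minus strand for Higd1a and chr8:124949205-124949504 on the minus strand for Egln1. In Bnip3 both forms overlap in the palindrome CACGTG. A match of these letters is a description of the window and not a binding site.
Bnip3: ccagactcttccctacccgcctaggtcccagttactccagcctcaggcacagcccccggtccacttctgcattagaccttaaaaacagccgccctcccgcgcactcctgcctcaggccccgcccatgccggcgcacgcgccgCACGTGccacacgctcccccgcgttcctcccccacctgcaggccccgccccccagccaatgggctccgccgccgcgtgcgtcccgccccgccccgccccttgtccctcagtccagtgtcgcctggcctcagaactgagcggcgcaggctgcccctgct
Cox7a1: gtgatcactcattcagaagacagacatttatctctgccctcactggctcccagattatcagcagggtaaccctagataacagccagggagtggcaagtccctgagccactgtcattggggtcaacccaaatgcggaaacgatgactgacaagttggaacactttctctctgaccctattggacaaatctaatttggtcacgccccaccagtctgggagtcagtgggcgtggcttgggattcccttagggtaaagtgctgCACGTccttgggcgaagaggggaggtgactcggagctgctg
Higd1a: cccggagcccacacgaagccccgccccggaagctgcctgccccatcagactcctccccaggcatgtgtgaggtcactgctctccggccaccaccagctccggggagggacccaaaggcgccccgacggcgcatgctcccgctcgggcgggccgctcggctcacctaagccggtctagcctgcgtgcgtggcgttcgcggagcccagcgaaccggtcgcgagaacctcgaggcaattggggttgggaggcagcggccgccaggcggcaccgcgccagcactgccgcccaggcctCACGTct
Egln1: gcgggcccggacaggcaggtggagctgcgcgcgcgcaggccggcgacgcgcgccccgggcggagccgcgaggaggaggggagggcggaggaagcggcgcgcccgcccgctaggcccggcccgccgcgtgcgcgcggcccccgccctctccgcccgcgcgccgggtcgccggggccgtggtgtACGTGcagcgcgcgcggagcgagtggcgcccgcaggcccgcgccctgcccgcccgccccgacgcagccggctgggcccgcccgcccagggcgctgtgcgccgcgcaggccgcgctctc

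In μ-g 164 genes (0.823% of those tested) changed, of which 87 rose (0.436%) and 77 fell (0.386%). The falls reached further than the rises. The rises had a median log2 FC of 0.33 and ran from 0.21 to 0.64, and 3 of them, Epas1, Fam13a and Sesn3, were above 1.5-fold. The falls had a median of −0.45 and ran from −0.25 to −2.12, with 24 above 1.5-fold and 12 above 2-fold. All 164 genes had their 3 arrays of μ-g on one side of the 3 of control, as 11.5% (higher) and 5.7% (lower) of all genes did. At an unadjusted p under 0.05 in limma, 9.94% of all genes were higher and 4.1% lower. Genes above the median level passed that limit more often, with 1636 of 9969 higher and 661 lower. The shares over all genes that stand beside the lists include the dim genes. With arrays centred on their medians the counts were 54 and 79, and with quantile normalization 61 and 87, so that the balance between rises and falls depended on the scaling. A fit of only the 6 arrays of μ-g and control called 0 genes at adjusted p in limma, with 1770 higher and 795 lower at an unadjusted p under 0.05, so every call here rests on the spread shared with the 1-g and 2-g arrays. Without μ-g replicate 1 the calls were 3 and 1, and without μ-g replicate 3 they were 2 and 0, while without μ-g replicate 2 they were 280 and 112.

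**Figure D1:**
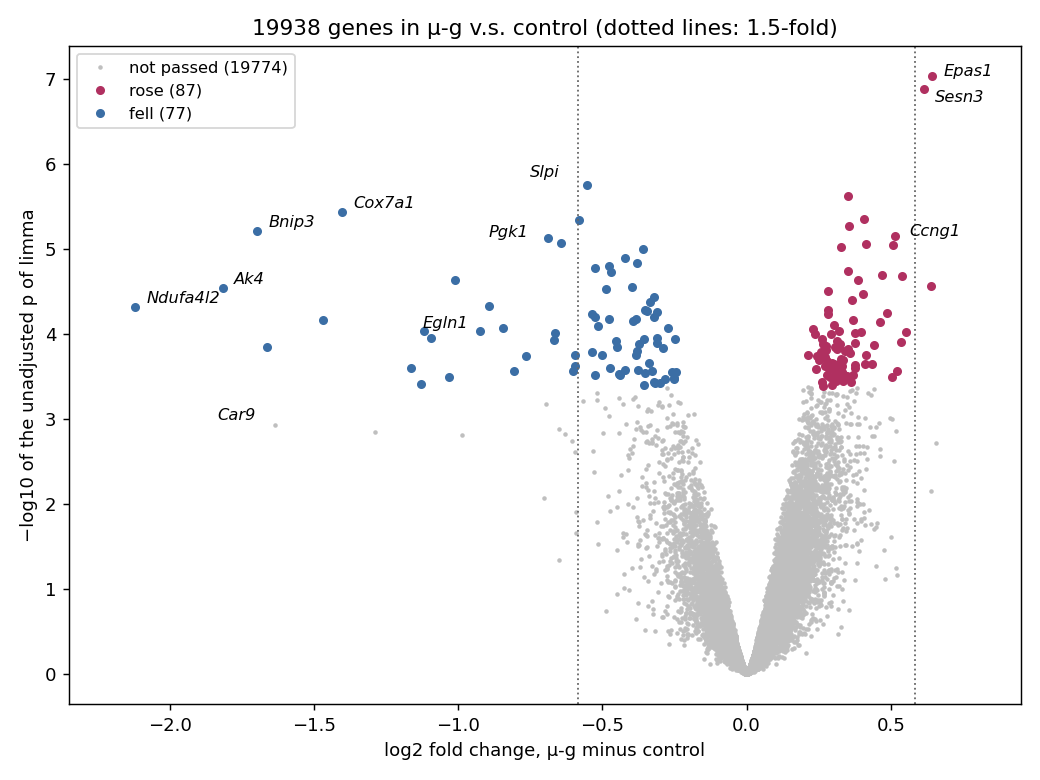
Log2 fold change of μ-g minus control (x axis) against the −log10 of limma's unadjusted p (y axis) for 19938 genes, with the 87 genes that rose in red and the 77 that fell in blue. The falls stretch to −2.12 while the rises end at 0.64, with Epas1 and Sesn3 at the smallest p.

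The genes of the oxygen-sensing pathway itself moved in both directions. Epas1, which encodes HIF-2α, had 8.69, 8.75 and 8.66 in μ-g, against 8.17, 7.98 and 8.02 in control (log2 FC 0.64, SE 0.06, adjusted p = 0.00132), the largest rise among the 164 calls. Its μ-g arrays spanned less than 0.1 and did not overlap control. Arnt, the shared partner, had 11.96, 11.90 and 11.93 in μ-g, against 11.71, 11.72 and 11.72 in control (log2 FC 0.21, SE 0.04, adjusted p = 0.0347), a small rise over control arrays that were nearly equal. Hif1a had 12.73, 12.62 and 12.76 in μ-g, against 12.55, 12.43 and 12.50 in control, higher on all 3 μ-g arrays, but did not pass (log2 FC 0.21, SE 0.05, adjusted p = 0.0867). Egln1, the main hydroxylase that marks the alpha subunits, fell to 9.43, 9.52 and 9.46 in μ-g, against 10.41, 10.67 and 9.86 in control (log2 FC −0.84, SE 0.15, adjusted p = 0.0300). Its 3 μ-g arrays were within 0.1 of each other, while control replicate 3 lay well under the other controls. Among genes of the pathway chosen after their values were seen, Egln3 had a log2 FC of −0.34 (adjusted p = 0.326), Egln2 −0.01 (0.966), Vhl −0.15 (0.359), Hif1an, an asparagine hydroxylase that blocks the factors, 0.04 (0.805) and Hif3a −0.04 (0.770). Epas1 and Sesn3 were the 2 of 164 calls that stayed past the threshold whichever of the 12 arrays was left out, with the adjusted p of Epas1 between 0.00121 and 0.0134.

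Genes that low oxygen induces were lower in μ-g as a group. Of 41 measured genes of a hypoxia list, 0 rose, 13 fell and 28 did not pass, against 0.386% of all genes that fell. Their median log2 FC was −0.37, against 0.02 for all genes, and 39 of 41 were below 0. The study names many of these genes from the same arrays, so that the list is not independent evidence of its direction. The mean level of the list was 9.16, 9.24 and 9.17 in μ-g, against 9.79, 10.07 and 9.55 in control, with control replicate 2 highest and control replicate 3 nearest to μ-g.

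Most of the largest falls were of genes that act at mitochondria. Ndufa4l2, a mitochondrial protein that lowers electron entry into the respiratory chain, had 6.79, 7.07 and 6.94 in μ-g, against 8.94, 10.04 and 8.18 in control (log2 FC −2.12, SE 0.34, adjusted p = 0.0257). Its control arrays were far apart while those of μ-g were within 0.3. Ak4, an adenylate kinase of the mitochondrial matrix, had 7.96, 8.39 and 7.55 in μ-g, against 9.53, 10.47 and 9.34 in control (log2 FC −1.82, SE 0.28, adjusted p = 0.0196). Bnip3, a receptor for mitophagy on the outer mitochondrial membrane, had 9.70, 10.22 and 9.75 in μ-g, against 11.78, 12.03 and 10.95 in control (log2 FC −1.70, SE 0.22, adjusted p = 0.0124), and its relative Bnip3l had a log2 FC of −0.18 and did not pass (adjusted p = 0.159). In each of these 3 genes that fell the lowest control array was above the highest μ-g array. Cox7a1, a subunit of cytochrome c oxidase known from heart and muscle, had 7.80, 8.18 and 8.04 in μ-g, against 9.38, 9.82 and 9.03 in control (log2 FC −1.40, SE 0.17, adjusted p = 0.0124). Higd1a, a small protein of the inner membrane, had 7.90, 7.84 and 7.70 in μ-g, against 8.83, 9.19 and 8.45 in control (log2 FC −1.01, SE 0.15, adjusted p = 0.0178). Fam162a and Mgarp, mitochondrial proteins that low oxygen induces, fell with log2 FC of −1.16 and −1.13 (adjusted p = 0.0405 and 0.0471). Pdk1 encodes a mitochondrial kinase that inhibits pyruvate dehydrogenase. It had 7.51, 7.73 and 7.44 in μ-g, against 9.38, 9.45 and 8.27 in control (log2 FC −1.47, SE 0.25, adjusted p = 0.0273). Control replicate 3 was the lowest control array in Ndufa4l2, Ak4, Bnip3, Cox7a1, Higd1a and Pdk1.

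The other genes of the list that fell were Car12, Tmem45a, Selenbp1, Stc2 and Ndrg1. Car12, a membrane carbonic anhydrase, had 7.02, 6.92 and 7.41 in μ-g, against 8.41, 8.41 and 7.62 in control (log2 FC −1.03, SE 0.21, adjusted p = 0.0435), with control replicate 3 close to μ-g replicate 3. Its relative Car9 had 6.38, 6.48 and 6.14 in μ-g, against 7.76, 9.01 and 7.15 in control, a larger difference that did not pass (log2 FC −1.64, SE 0.39, adjusted p = 0.0786). Selenbp1, a selenium-binding enzyme, and Tmem45a, a membrane protein, fell with log2 FC of −1.12 and −1.66 (adjusted p = 0.0300 and 0.0326). Stc2, a secreted stanniocalcin, had 9.54, 9.30 and 9.48 in μ-g, against 10.09, 9.98 and 9.87 in control (log2 FC −0.54, SE 0.10, adjusted p = 0.0341), and Stc1 had a log2 FC of −0.70 (adjusted p = 0.0626). Ndrg1, a stress-responsive cytoplasmic protein, fell by 0.40 (12.12, 12.04 and 12.13 in μ-g, against 12.55, 12.46 and 12.47 in control, adjusted p = 0.0196). The vessel-related peptides Apln and Adm had −0.63 (adjusted p = 0.0839) and −0.47 (0.199), and the collagen hydroxylase P4ha1 −0.32 (0.224). Vegfa, a vessel growth factor that low oxygen induces in many cells, had 11.97, 11.87 and 11.91 on the μ-g arrays and 11.93, 11.93 and 11.90 on the control arrays, a log2 FC of −0.00 (SE 0.05) with overlap. Pfkfb3, Slc2a3 and Lox were within 0.1 of 0, at −0.01, −0.05 and −0.07.

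**Figure D2:**
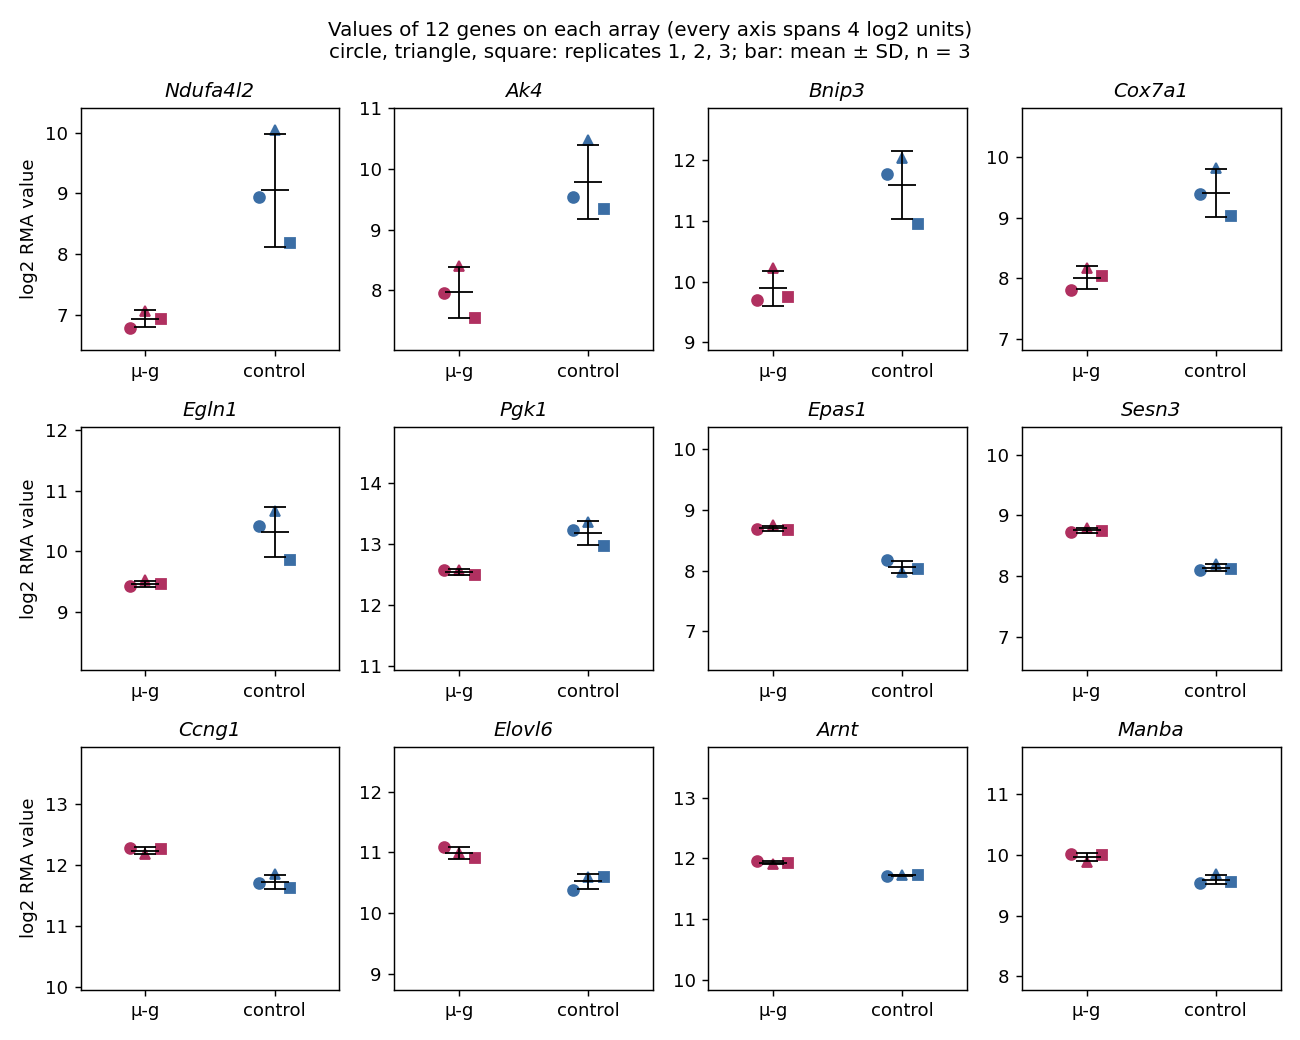
Log2 RMA values (y axis) of 12 genes on the 3 arrays of μ-g (left, red) and of control (right, blue), where symbols are replicates and bars are the mean ± SD (n = 3). Control arrays of Ndufa4l2 run from 8.18 to 10.04, while both groups of Epas1, Sesn3 and Arnt are tight.

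Genes at several steps of glycolysis fell. Of 25 measured genes 0 rose, 9 fell and 16 did not pass, where 0.386% of all genes fell. Pdk1, described above, is counted among the 9 though it is not an enzyme of the pathway itself. The list had a median log2 FC of −0.31, with array means of 10.01, 10.14 and 10.01 in μ-g, against 10.36, 10.51 and 10.26 in control. Pfkl, the liver form of phosphofructokinase, had 10.24, 10.65 and 10.14 in μ-g, against 11.26, 11.43 and 10.77 in control (log2 FC −0.81, SE 0.16, adjusted p = 0.0414), and the muscle form Pfkm had 0.17 (adjusted p = 0.565). Aldoa, the main aldolase, had 12.96, 13.08 and 12.93 in μ-g, against 13.43, 13.49 and 13.32 in control (log2 FC −0.42, SE 0.06, adjusted p = 0.0151), and Aldoc, its relative, had −0.99 and did not pass (adjusted p = 0.0861). Tpi1, Pgam1 and Pkm, which act further down the pathway, fell with log2 FC of −0.39, −0.37 and −0.36 (adjusted p = 0.0273, 0.0326 and 0.0125). Pgk1, the first step that yields ATP, had 12.57, 12.58 and 12.49 in μ-g, against 13.23, 13.36 and 12.98 in control (log2 FC −0.64, SE 0.09, adjusted p = 0.0124), a gap of 0.40 between the groups' nearest arrays. Eno2, an enolase, and Pgm1, which links glycogen to glycolysis, fell with log2 FC of −0.66 and −0.67 (adjusted p = 0.0300 and 0.0326). Ldha, which makes lactate, was lower on all 3 μ-g arrays and just missed the threshold (log2 FC −0.39, SE 0.08, adjusted p = 0.0569). Hk1 and Hk2, which trap glucose in the cell, had −0.09 and −0.05 (adjusted p = 0.776 and 0.906). Pdk4, a relative of Pdk1 that fasting induces in several tissues, went the other way at 0.30 without passing (adjusted p = 0.295). Aldoart1, a retrogene of Aldoa, fell as well (−0.59, adjusted p = 0.0400) and may share signal with it.

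Among glycogen genes 1 enzyme of synthesis and 1 of breakdown fell, where 0.386% of all genes fell. Gys1, glycogen synthase, had 11.03, 10.91 and 10.92 in μ-g, against 11.46, 11.58 and 11.29 in control (log2 FC −0.49, SE 0.07, adjusted p = 0.0196). Pygl, a glycogen phosphorylase, was lower on each of the 3 arrays of μ-g than on any of the 3 of control (log2 FC −0.53, SE 0.09, adjusted p = 0.0273). The other 16 of 18 measured genes did not pass, with Phka1, a subunit of phosphorylase kinase, at 0.22 (adjusted p = 0.0551), and the median of the list was −0.03. Slc37a4, the glucose 6-phosphate transporter of the endoplasmic reticulum, which is no member of the list and was chosen after its value was seen, fell by 0.38 (adjusted p = 0.0273).

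The other falls came from genes of several kinds. Gpr35, a G-protein coupled receptor, had 7.83, 7.70 and 7.57 in μ-g, against 8.71, 8.96 and 8.20 in control (log2 FC −0.92, SE 0.16, adjusted p = 0.0300), while Gpr84, a receptor for medium-chain fatty acids, had −0.59 with groups that overlap (adjusted p = 0.249). Slpi, a secreted inhibitor of leukocyte proteases, had 10.06, 10.01 and 9.91 in μ-g, against 10.51, 10.46 and 10.67 in control (log2 FC −0.55, SE 0.06, adjusted p = 0.0117), the smallest adjusted p among the falls. Pafah1b3, a catalytic subunit of platelet-activating factor acetylhydrolase, had 10.63, 10.68 and 10.45 in μ-g, against 11.26, 11.20 and 11.05 in control (log2 FC −0.58, SE 0.07, adjusted p = 0.0124). The nearest arrays of μ-g and control stood 0.40 and 0.37 apart in Slpi and Pafah1b3. Crct1, a small protein of the epidermal differentiation genes, and Ang2, of the angiogenin family of secreted ribonucleases, fell with log2 FC of −1.09 and −0.89 (adjusted p = 0.0321 and 0.0257). Ciart, a repressor of the circadian clock, had 9.80, 9.55 and 9.25 in μ-g, against 10.46, 10.26 and 10.17 in control (log2 FC −0.77, SE 0.14, adjusted p = 0.0349), and 0 of the other 21 of 22 clock genes passed. Id2, an inhibitor of helix-loop-helix factors, and Maff, a small Maf factor, fell with log2 FC of −0.52 and −0.44 (adjusted p = 0.0424 and 0.0424), and they were the 2 of 33 immediate early genes that passed. Of 51 inflammatory cytokines and chemokines S100a8, a calcium-binding alarmin, and Cxcl3, a neutrophil chemokine, fell with log2 FC of −0.59 and −0.25 (adjusted p = 0.0347 and 0.0440), 0 rose and the median was −0.03. At an unadjusted p under 0.05, 13 of these 51 genes were lower and 1 was higher. Of the 33 immediate early genes 8 were lower and 1 was higher at that limit, against 4.1% lower and 9.94% higher of all genes. Il6, which acts on osteoclast formation, had −0.26 and did not pass (adjusted p = 0.0786). Rhob, a small GTPase, and Tpm2, a tropomyosin, were the calls among 68 genes of the actin cytoskeleton and focal adhesion, with log2 FC of −0.47 and −0.38 (adjusted p = 0.0405 and 0.0412) and a median of the list of 0.00. Gstm2, a glutathione transferase, was the fall among 37 genes of oxidative stress (−0.34, adjusted p = 0.0390). Beside the calls in these lists, 0.386% of all genes fell, and counts of 1 or 2 say little about lists of this size.

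Small nucleolar RNAs, histones, ribosomal proteins and complex I lay slightly below control in their medians, mostly without passing gene by gene. Beside the few calls in these lists, 0.386% of all genes fell. The small nucleolar RNAs, which guide the modification of ribosomal RNA, had a median log2 FC of −0.20 over 54 measured, 50 of them below 0. Of these 1 fell (Snord95, 8.25, 8.12 and 8.06 in μ-g, against 8.51, 8.47 and 8.38 in control, log2 FC −0.31, SE 0.06, adjusted p = 0.0326), 0 rose, and 16 were lower at an unadjusted p under 0.05, against 4.1% of all genes. Replication-dependent histones, made in the phase of DNA synthesis, had a median of −0.17 over 30, with 0 calls and 14 lower at an unadjusted p under 0.05. The histone with the smallest p, H4c6, had 11.33, 11.48 and 11.45 in μ-g, against 11.71, 11.61 and 11.77 in control (adjusted p = 0.0753). Cytosolic ribosomal proteins had a median of −0.07 over 58, and Rpl12 fell by 0.29 (adjusted p = 0.0326). Mitochondrial ribosomal proteins had −0.08 over 77, and Mrpl54 fell by 0.32 (adjusted p = 0.0273). Complex I of the respiratory chain had −0.09 over 35, with 33 below 0, 0 calls in limma and 6 lower at an unadjusted p under 0.05, and Ndufv3, one of its subunits, was lowest at −0.50 (adjusted p = 0.0839). After the trend of each array with gene span, described further on, was removed, the medians were −0.18 for small nucleolar RNAs, −0.17 for histones, −0.06 for cytosolic and −0.10 for mitochondrial ribosomal proteins and −0.10 for complex I. With quantile normalization the median of the cytosolic ribosomal proteins was −0.03. In array means the small nucleolar RNAs had 8.32, 8.47 and 8.34 in μ-g, against 8.59, 8.52 and 8.57 in control, and the histones had 9.50, 9.64 and 9.56 in μ-g, against 9.67, 9.68 and 9.78 in control. Both sets of means did not overlap, and μ-g replicate 2 was the nearest to control in each.

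The miR-17 cluster on chromosome 14, a short run of precursors from 1 host transcript that promotes growth in many tissues, was lower in μ-g at part of its probes. The mature sequences of RefSeq (GRCm38.p6) between chr14:115043684 and chr14:115044380 on the plus strand are printed for 5 of its members, because those shown share seeds in part, with the seed, bases 2 to 8, in capitals. The arrays measured the precursor or the host transcript and not the mature forms.
miR-17-5p: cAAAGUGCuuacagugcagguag
miR-20a-5p: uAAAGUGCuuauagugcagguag
miR-18a-5p: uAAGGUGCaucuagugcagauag
miR-19a-3p: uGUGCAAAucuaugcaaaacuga
miR-19b-3p: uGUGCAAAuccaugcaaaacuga

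Mir18, with a seed of its own, had 7.58, 7.68 and 7.60 in μ-g, against 8.15, 8.03 and 8.25 in control (log2 FC −0.52, SE 0.08, adjusted p = 0.0166). The host gene Mir17hg had 5.99, 6.07 and 5.77 in μ-g, against 6.54, 6.40 and 6.22 in control (log2 FC −0.44, SE 0.09, adjusted p = 0.0424). In both genes all μ-g arrays were under all control arrays. Mir19a and Mir19b-1, which share the seed GUGCAAA, were lower at −0.38 and −0.21 without passing (adjusted p = 0.0810 and 0.204). Mir17 and Mir20a, which share the AAAGUGC seed, had −0.03 and −0.07 with groups that overlap (adjusted p = 0.881 and 0.762). Over all 300 microRNA genes the median was 0.00, and Mir18 and Mir17hg were the calls, where 0.386% of all genes fell. Mir17 and Mir20a were dim, under 6.01 on all 6 arrays. Mir17hg was near that level, and under it on μ-g replicates 1 and 3. With 1 of the 12 arrays left out at a time, Mir17hg kept its call in 2 fits and Mir18 in 10.

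The rises were small. Sesn3, a sestrin that restrains the growth kinase mTORC1 and is a target of FoxO factors, had 8.72, 8.80 and 8.75 in μ-g, against 8.10, 8.20 and 8.11 in control (log2 FC 0.61, SE 0.06, adjusted p = 0.00132). Its nearest arrays were 0.52 apart and each group spanned 0.1 or less. Ccng1, cyclin G1, a target of p53, had 12.28, 12.18 and 12.26 in μ-g, against 11.70, 11.85 and 11.62 in control (log2 FC 0.51, SE 0.07, adjusted p = 0.0124). Eda2r, a receptor of the TNF receptor family that p53 induces, had 8.55, 8.32 and 8.42 in μ-g, against 8.04, 7.81 and 7.92 in control (log2 FC 0.50, SE 0.10, adjusted p = 0.0435). The groups did not overlap in either gene. These were the 2 that rose of 39 measured p53 targets, where 0.436% of all genes rose, while 0 fell and 37 did not pass. The median was 0.12, and the lowest member had −0.22. At an unadjusted p under 0.05, 17 were higher and 2 lower, against 9.94% and 4.1% of all genes. Mdm2, which degrades p53, had 0.35, Polk, a DNA polymerase for damaged template, 0.39, and Trp53inp1, a partner of p53, 0.52, all higher on each μ-g array without passing (adjusted p = 0.0625, 0.0744 and 0.0828). Of 32 FoxO targets and atrophy genes Sesn3 rose, and Bnip3 and Cited2, a competitor of HIF for its coactivator, fell (Cited2 −0.25, adjusted p = 0.0415). Over all genes 0.436% rose and 0.386% fell. Tsc1, a brake on mTORC1, rose by 0.26 and Castor2, a relative of the arginine sensor of mTORC1, by 0.40 (adjusted p = 0.0465 and 0.0300), both chosen after their values were seen.

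Other rises by size came from genes of several functions. Fam13a had 8.36, 7.97 and 8.31 in μ-g, against 7.59, 7.69 and 7.45 in control (log2 FC 0.64, SE 0.10, adjusted p = 0.0196). Ehd3, an ATPase of endocytic recycling, had 11.17, 10.94 and 10.96 in μ-g, against 10.40, 10.35 and 10.66 in control (log2 FC 0.55, SE 0.10, adjusted p = 0.0300). Stxbp4, a syntaxin-binding protein, and Psrc1, a spindle protein, rose by 0.54 and 0.53 (adjusted p = 0.0171 and 0.0326). In Psrc1 control replicate 2, at 10.25, was the highest control and still under the lowest μ-g array, at 10.52. Dock4, an activator of Rac, Parp11, an ADP-ribosyltransferase, and Fndc3a, a fibronectin-domain protein, rose by 0.52, 0.51 and 0.49 (adjusted p = 0.0413, 0.0124 and 0.0265). D3Ertd751e and Wdr78, a dynein-associated protein of motile cilia, rose by 0.46 and 0.44 (adjusted p = 0.0277 and 0.0326). Ttll5, a tubulin glutamylase, had 9.42, 9.36 and 9.44 in μ-g, against 9.09, 9.05 and 9.02 in control (log2 FC 0.35, SE 0.04, adjusted p = 0.0118), and Sh3d19, an adaptor with SH3 domains, had 10.53, 10.45 and 10.44 in μ-g, against 10.06, 10.14 and 10.16 in control (log2 FC 0.36, SE 0.05, adjusted p = 0.0124). Both were among the 10 genes with the smallest adjusted p, though neither reached 1.3-fold. Tgfb3, a growth factor of the TGF-beta family, rose by 0.34 (adjusted p = 0.0334). It was the rise among 71 genes of BMP and TGF-beta signalling, where 0.436% of all genes rose.

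Lysosome and cholesterol genes leaned upward with few calls. Manba and Idua, lysosomal enzymes that cut sugars from glycoproteins and from glycosaminoglycans, both rose. Manba had 9.97 ± 0.07 in μ-g, against 9.59 ± 0.08 in control, as mean ± SD over 3 arrays each (log2 FC 0.38, SE 0.07, adjusted p = 0.0300), and Idua had 8.45, 8.27 and 8.30 in μ-g, against 8.01, 7.92 and 8.09 in control (log2 FC 0.33, SE 0.07, adjusted p = 0.0457). They were the calls of 56 measured lysosome genes, where 0.436% of all genes rose. The list had a median of 0.09, with 47 above 0, against 61% of all genes. At an unadjusted p under 0.05, 20 were higher and 1 was lower, against 9.94% and 4.1% of all genes. Ctsd, a protease of the lysosome, Galc and Gusb, further sugar-cutting enzymes, and Tpp1, a peptidase, had 0.20, 0.24, 0.25 and 0.26 without passing (adjusted p = 0.0710, 0.0786, 0.0786 and 0.0828). Gnptab, the enzyme that tags proteins for the lysosome, rose though it was not on the list (10.08, 10.04 and 10.18 in μ-g, against 9.69, 9.66 and 9.73 in control, log2 FC 0.41, SE 0.05, adjusted p = 0.0124). Elovl6, which lengthens fatty acids, had 11.09, 10.99 and 10.90 in μ-g, against 10.39, 10.59 and 10.60 in control (log2 FC 0.47, SE 0.07, adjusted p = 0.0171), with the lowest control, replicate 1, well under the other controls. It was the rise among 38 genes of fatty acid and phospholipid synthesis, whose median was 0.08. Of these, 15 were higher and 1 was lower at an unadjusted p under 0.05, beside the same shares of all genes. That median was 0.04 with the trend with gene span removed and 0.04 with quantile normalization. Cholesterol synthesis had a median of 0.15 with 22 of 23 genes above 0, 0 calls in limma and 9 higher at an unadjusted p under 0.05, beside the same 61% and 9.94% of all genes. Insig1, a sterol sensor, had 11.55, 11.55 and 11.48 in μ-g, against 11.12, 11.35 and 11.23 in control (adjusted p = 0.0786). The array means of the cholesterol list were 10.56, 10.63 and 10.52 in μ-g, against 10.25, 10.50 and 10.53 in control, so that the groups overlapped and control replicate 1 was lowest.

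Interferon-response genes also leaned upward. Gbp7, a guanylate-binding protein, had 10.94 ± 0.09 in μ-g, against 10.51 ± 0.09 in control, as mean ± SD over 3 arrays each (log2 FC 0.43, SE 0.08, adjusted p = 0.0390), and Dtx3l, a ubiquitin ligase that interferon induces, had 10.86, 10.92 and 10.95 in μ-g, against 10.62, 10.65 and 10.62 in control (log2 FC 0.28, SE 0.05, adjusted p = 0.0264). The other 50 of 52 members did not pass, where 0.436% of all genes rose. At an unadjusted p under 0.05, 20 members were higher and 1 was lower, against 9.94% and 4.1% of all genes. Of the 52 members 41 were above 0, against 61% of all genes. The median was 0.13, and the lowest member had −0.48. Gbp3 just missed the threshold at 0.37 (adjusted p = 0.0524), and Eif2ak2, the kinase PKR, Trim30a and Oas3, antiviral proteins, had 0.38, 0.36 and 0.29 (adjusted p = 0.0786, 0.0786 and 0.0875). The array means were 10.24, 10.43 and 10.35 in μ-g, against 10.12, 10.26 and 10.24 in control, which overlapped through μ-g replicate 1. Slfn8, a Schlafen protein, and Irf2, an interferon regulatory factor, rose by 0.36 and 0.25 (adjusted p = 0.0465 and 0.0378) and were chosen after their values were seen.

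**Figure D3:**
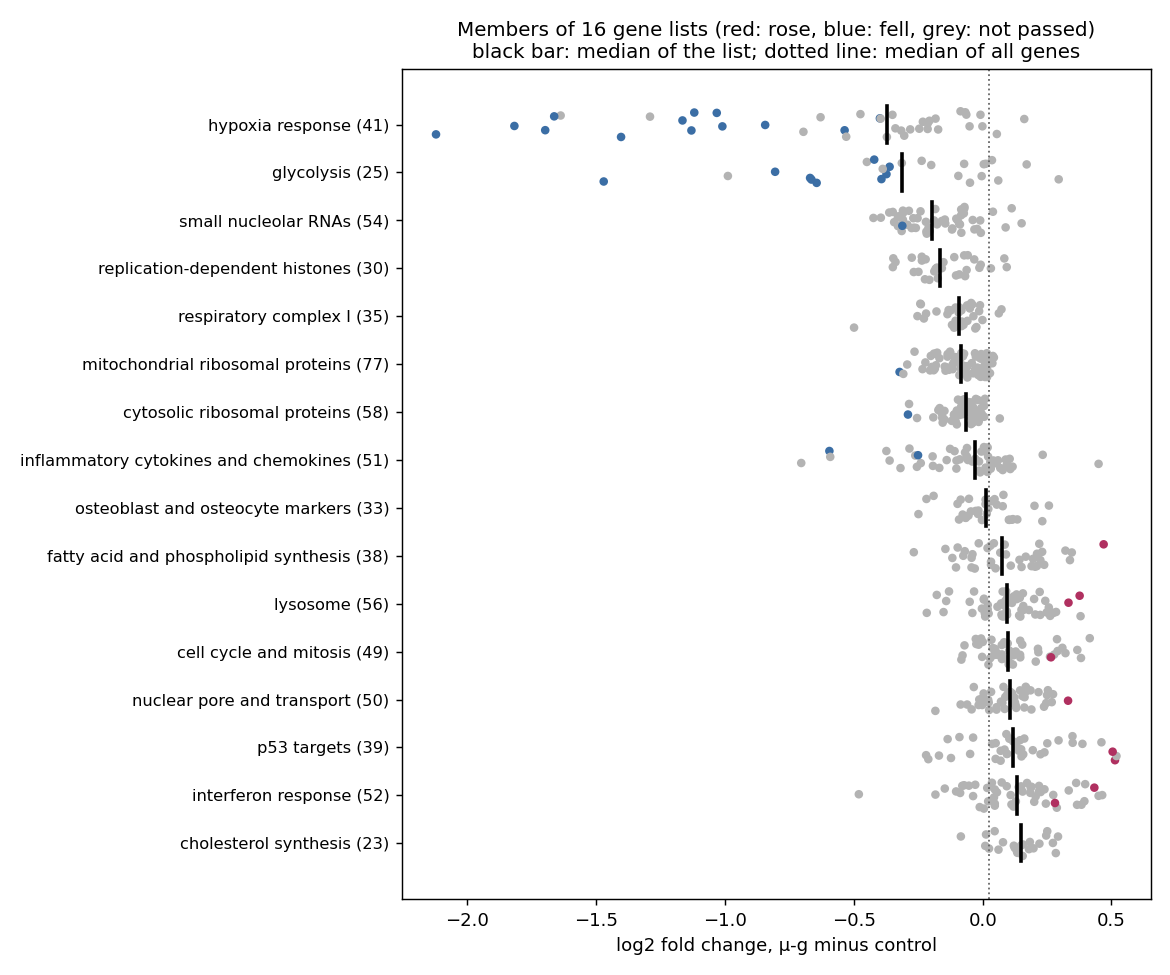
Log2 fold change of μ-g minus control (x axis) for each member of 16 gene lists (number measured in brackets), with genes that rose in red, that fell in blue and that did not pass in grey, and the median as a black bar. The hypoxia and glycolysis lists hold most falls, at medians of −0.37 and −0.31, while the lists at the foot have medians between 0.08 and 0.15 with few calls.

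Lists of cell division, nuclear transport and vesicle tethering held between 1 and 3 rises each, where 0.436% of all genes rose. Counts this small say little about lists of this size. Of 49 cell cycle genes E2f8, a repressor of the E2F family, rose by 0.27 (adjusted p = 0.0493), 0 fell and the median was 0.10. Nuf2 and Cenpe, of the kinetochore, had 0.21 and 0.42 (adjusted p = 0.0786 and 0.125). Ipo8, an importin, rose by 0.33 (adjusted p = 0.0414) among 50 nuclear transport genes with a median of 0.11. Exoc4, a subunit of the exocyst, had 10.47, 10.38 and 10.59 in μ-g, against 10.14, 10.09 and 9.99 in control (log2 FC 0.40, SE 0.06, adjusted p = 0.0207). Snx27 and Snx19, sorting nexins, rose by 0.30 and 0.27 (adjusted p = 0.0390 and 0.0400), and Trappc6a, a tethering factor of the Golgi, fell by 0.52 (adjusted p = 0.0294). These were the calls of 188 genes for vesicle tethering and Rab GTPases. Atp2c1, the calcium pump of the Golgi, rose by 0.29, Hspa13, a chaperone, by 0.29 and Phf8, a histone demethylase, by 0.27 (adjusted p = 0.0412, 0.0435 and 0.0326). Zfp266 and Zfp418, zinc finger proteins, rose by 0.30 and 0.34 (adjusted p = 0.0488 and 0.0424), 2 of 406, a share close to the 0.436% of all genes. Rnf169, a ubiquitin ligase of DNA repair, rose by 0.37 and Rnf39, another RING protein, fell by 0.34 (adjusted p = 0.0424 and 0.0238).

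The primary cilium is a candidate load sensor of osteocytes. Of 58 measured genes of cilium and tubulin 0 rose and 0 fell in limma, and the median was 0.05. At an unadjusted p under 0.05, 14 were higher and 2 lower, against 9.94% higher and 4.1% lower of all genes. Of the 9969 genes above the median level, 1636 were higher and 661 lower at that limit. Ttc21b, of transport inside the cilium, had 8.84, 8.62 and 8.74 on the μ-g arrays and 8.55, 8.32 and 8.26 on the control arrays. Wdr35, of the same process, had 10.69, 10.58 and 10.75 on the μ-g arrays and 10.31, 10.40 and 10.38 on the control arrays. Both genes just missed the threshold (0.36 and 0.31, adjusted p = 0.0534 and 0.0551). Outside the list, and chosen after their values were seen, Cc2d2a, of the gate at the base of the cilium, Intu, which acts in cilium assembly, and Ttbk2, a kinase that starts it, rose by 0.30, 0.28 and 0.32 (adjusted p = 0.0290, 0.0424 and 0.0300). Cspp1 and Spice1, proteins of centrosome and spindle, rose by 0.42 and 0.31 (adjusted p = 0.0347 and 0.0326).

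Some lists tied to bone, load or cell death held 0 calls in limma, where 0.823% of all genes were called, so that lists of this size say little by having none. These were 33 osteoblast and osteocyte markers (median 0.01, 2 higher and 2 lower at an unadjusted p under 0.05), 47 channels of mechanosensing (0.05, 6 and 0), 36 targets of YAP and TAZ (0.08, 5 and 3), 67 Wnt genes (0.04, 6 and 1) and 40 genes of apoptosis (0.04, 5 and 2), beside 9.94% higher and 4.1% lower of all genes. Alpl, the phosphatase of mineralization, came nearest among the bone genes, at 10.87, 11.13 and 10.86 on the μ-g arrays and 10.55, 10.82 and 10.79 on the control arrays (log2 FC 0.23, adjusted p = 0.275). Myc had −0.26 and Klf2, a factor that flow induces, −0.22, both lower on all μ-g arrays without passing (adjusted p = 0.0786 and 0.0786).

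**Figure D4:**
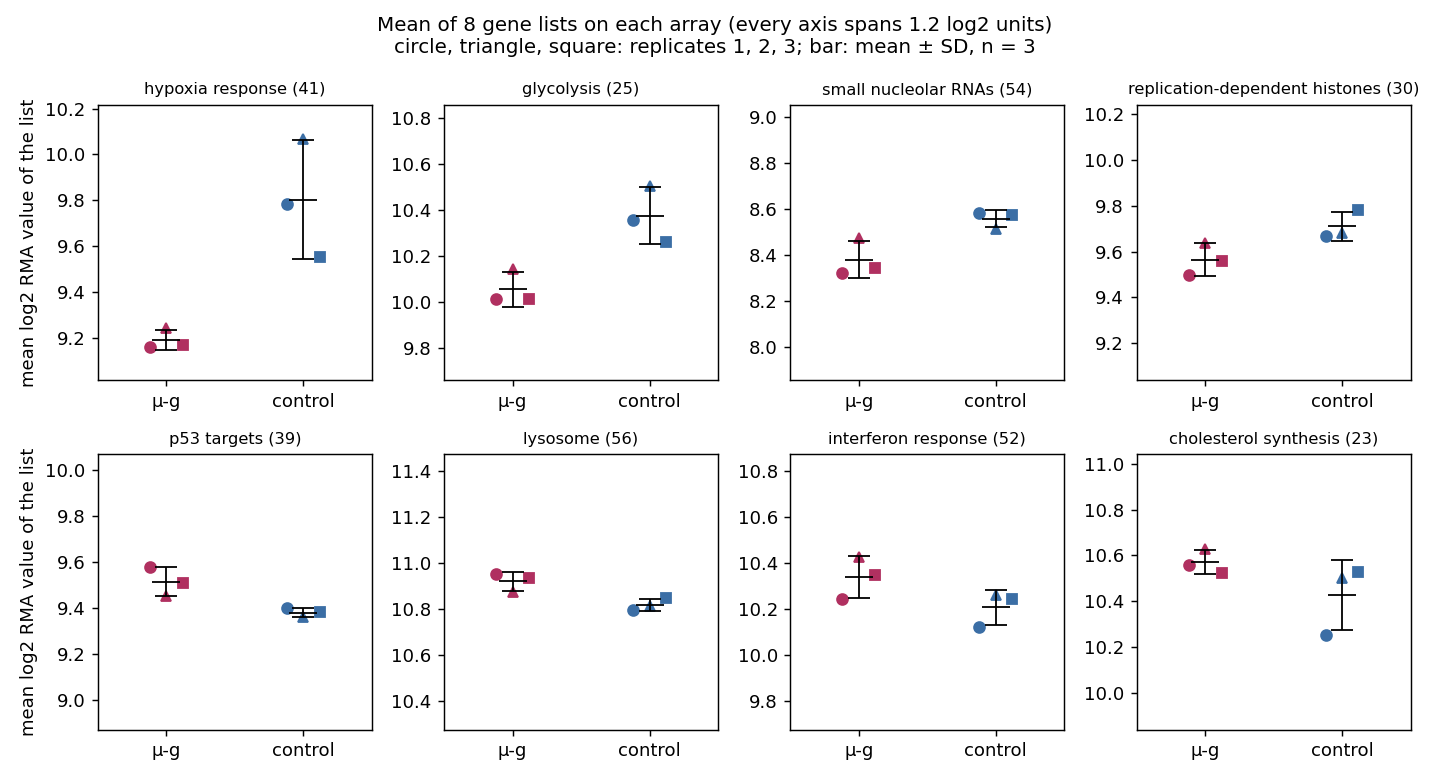
Mean log2 RMA value of 8 gene lists (y axis) on the 3 arrays of μ-g (left, red) and of control (right, blue), where symbols are replicates and bars are the mean ± SD (n = 3). The hypoxia list shows the widest gap and the widest control spread, and the interferon and cholesterol lists overlap.

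The direction of small changes went with the genomic span of the gene, the distance from its first to its last base in GRCm38.p6. The genes that rose had a median span of 62.2 kb and those that fell 7.88 kb, against 17.7 kb for all genes. Among genes above the median level, the shortest sixth (up to 6.41 kb) had a median log2 FC of −0.06 and the longest sixth (from 76.2 kb) 0.12. The longest minus the shortest sixth was 0.15, −0.04 and 0.16 on the μ-g arrays and −0.01, −0.10 and −0.15 on the control arrays, so that μ-g replicate 2 ran with the controls. After the trend with span was taken out of each array, 41 of the 87 genes that rose and 74 of the 77 that fell stayed past the threshold. That fit also took its spread prior from the genes and not from all clusters. A prior from the genes with the trend kept called 102 genes higher and 86 lower, against 42 and 97 with the trend removed. Epas1, Sesn3, Ccng1 and Elovl6 kept an adjusted p of 0.00221, 0.00429, 0.00761 and 0.0273, and Ndufa4l2 and Bnip3 of 0.0127 and 0.00609. Arnt, Idua, Tsc1 and Dock4 lost their call at an adjusted p of 0.172, 0.0706, 0.0949 and 0.0655, with log2 FC of 0.15, 0.30, 0.20 and 0.48, against 0.21, 0.33, 0.26 and 0.52 before. E2f8, Ipo8, Snx27, Snx19, Atp2c1, Hspa13, Phf8, Zfp266, Zfp418 and Rnf169 lost theirs too, at an adjusted p from 0.0511 (Rnf169) to 0.109 (Snx19), while Exoc4 kept it (0.0210). Of the cilium and centrosome genes, Cc2d2a, Intu and Spice1 lost it (0.0797, 0.0797 and 0.0516), and Ttbk2 and Cspp1 kept it (0.0429 and 0.0351). The list medians were then −0.38 for hypoxia, −0.18 for small nucleolar RNAs, 0.10 for p53 targets, 0.08 for lysosome, 0.12 for interferon, 0.12 for cholesterol, 0.07 for cell cycle, 0.02 for cilium and tubulin and 0.05 for nuclear transport. What the trend comes from was not tested.

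**Figure D5:**
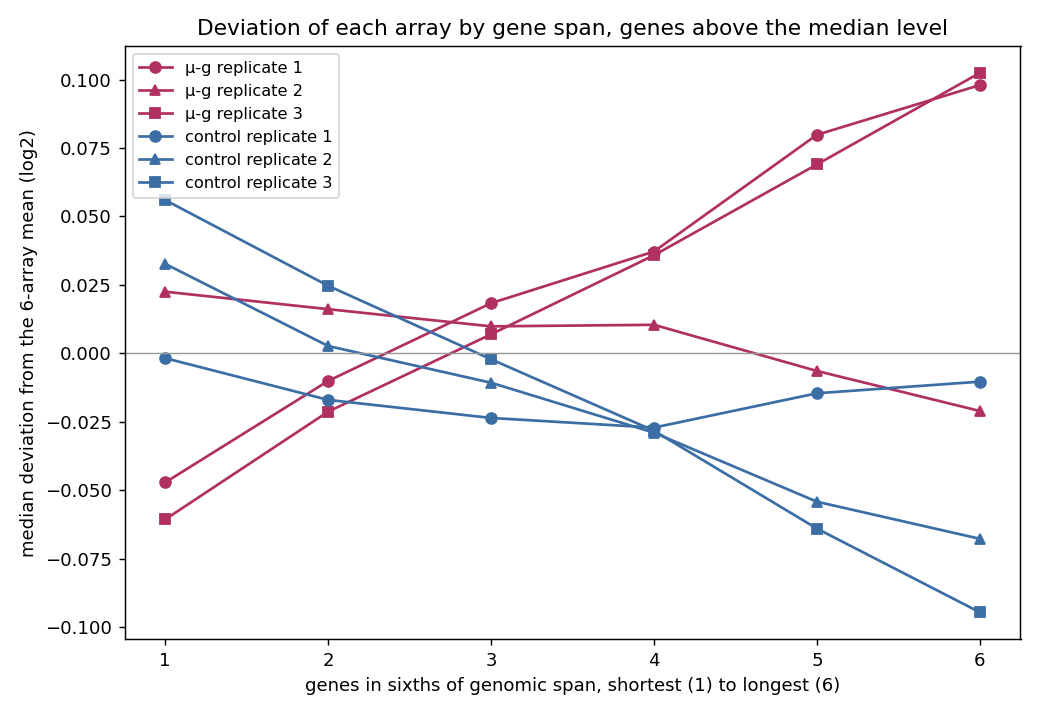
Median deviation of each array from the mean of the 6 arrays (y axis, log2) for genes above the median level in sixths of genomic span (x axis, shortest to longest), with μ-g in red and control in blue. Replicates 1 and 3 of μ-g rise to 0.10 in the longest sixth, and μ-g replicate 2 stays near the controls.

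The 1-g position of the bore shares the magnet with μ-g but not its gradient, and the field is stronger there than at μ-g. Field strength, gradient and apparent gravity differed together between these positions, so that their parts cannot be told apart. In μ-g v.s. 1-g limma called 0 genes (0% of 19938) at adjusted p, with 273 higher (1.37%) and 187 lower (0.938%) at an unadjusted p under 0.05. Of the 164 genes called against control, the difference of μ-g minus 1-g ran from −0.45 in Ak4 to 0.22 in Sesn3. Ak4 had a difference of −0.45 (SE 0.28, adjusted p = 1.00), with a 95% interval of −1.06 to 0.15, and Bnip3 of −0.25 (SE 0.22, adjusted p = 1.00), with an interval of −0.73 to 0.23. Sesn3 had 0.22 (SE 0.06, adjusted p = 1.00), with an interval of 0.10 to 0.34, and Epas1 0.15 (SE 0.06, adjusted p = 1.00), with 0.03 to 0.27. At the median SE the interval of a gene reached 0.15 to each side before any adjustment over genes. The adjusted p of 1.00 in these 4 genes does not show that μ-g and 1-g act alike.

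The 3 positions can be set side by side against the same control arrays, which they share. Ndufa4l2 had log2 FC of −2.12 in μ-g, −2.04 in 1-g and 1.60 in 2-g, and Bnip3 had −1.70, −1.45 and 0.99. Egln1 had −0.84 in μ-g, −0.84 in 1-g and 0.76 in 2-g, Gys1 had −0.49, −0.44 and 0.64, and Gpr35 had −0.92, −0.75 and 1.17. In these 5 genes the sign at 2-g was opposite to that at μ-g. Crct1 had −1.09 in μ-g, −0.97 in 1-g and −1.30 in 2-g, Mir18 had −0.52, −0.60 and −0.55, and S100a8 had −0.59, −0.31 and −0.64, below control at all positions. Epas1 had 0.64 in μ-g, 0.49 in 1-g and −0.09 in 2-g, Ehd3 had 0.55, 0.47 and −0.07, and Elovl6 had 0.47, 0.45 and 0.05, near control at 2-g. Sesn3 had 0.61 in μ-g, 0.40 in 1-g and 0.51 in 2-g, Psrc1 had 0.53, 0.54 and 0.53, and Exoc4 had 0.40, 0.36 and 0.41, above control at all positions. The hypoxia list had medians of −0.37 in μ-g, −0.35 in 1-g and 0.51 in 2-g, the p53 targets 0.12, 0.13 and 0.08, the lysosome genes 0.09, 0.11 and −0.01 and the cholesterol genes 0.15, 0.14 and −0.06.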

How the data were processed

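The arrays were of the type Mouse Gene 1.0 ST (Affymetrix), 3 for each group of MLO-Y4 cells. The deposited log2 values, after RMA by the authors, cover 28856 transcript clusters on 12 arrays, and precision is limited by the number of arrays. Clusters were joined to symbols through the platform table and current gene identifiers (21789 with 1 symbol, 1621 with several, 5446 with none, 91 without a current identifier). Of the 19938 genes, 999 had several clusters, and the brightest over the 12 arrays was taken. No column was left unused. Other clusters were not used here.

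With limma 3.58.1 in R 4.3.3, the 4 group means were estimated from 12 arrays over all clusters (8 residual and 3.90 prior degrees of freedom). P-values of μ-g minus control and of μ-g minus 1-g were adjusted by Benjamini and Hochberg over the genes. The exact two-sided permutation test was not used, since its p stays at 0.1 or above with 3 arrays a group. The study's methods name LIMMA, a fold change limit of 1.5 and a P under 0.05 without saying whether P was adjusted. Lists are described by counts and medians. The 69 lists, the members and the rule for named genes were chosen with earlier results of these data known. The rule names the 15 largest rises and falls whose groups do not overlap, the 10 smallest adjusted p, all called members of a list up to 5 (otherwise 4 in each direction) with up to 4 further members, the genes the study took to qPCR, and cell type markers. Any other gene named was chosen after its values were seen. The limma steps were tested on simulated data.

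Results were computed again with 22 alternatives, among them 1 array left out at a time, other scalings, other priors and, chosen after the data were seen, the trend with gene span removed and a prior from the named genes.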

Additional observations from a re-analysis of the deposited data

How the results depend on the processing

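The counts of 87 genes that rose and 77 that fell were the least stable values. Against these, the methods' rule of an unadjusted P under 0.05 with a fold change above 1.5 gave 5 and 36, a fit of only the 6 arrays 0 and 0, array weights 288 and 137, and a test of only the genes above the median level 253 and 139. Centring on medians gave 54 and 79 and an intensity trend with a robust prior 46 and 63. Removing the trend with gene span, chosen after the data were seen, gave 42 and 97, in a fit whose prior came from the genes. That prior with the trend kept gave 102 and 86. With the replicate number as a block the counts were 627 and 311, all 164 genes among them. Deviations of same-numbered arrays of μ-g and control correlated at 0.43, 0.48 and 0.02. Replicate 2 had the highest mean of the hypoxia list in each group (9.24 in μ-g, 10.07 in control, 9.30 in 1-g and 10.46 in 2-g). The labels do not say what the replicate numbers mark, so the main fit took no block. Whether same-numbered samples were paired was not tested. Leaving out 1 array gave 2 to 280 rises and 0 to 112 falls. In total, 4, 392 and 2 genes were called without μ-g replicates 1, 2 and 3, 51, 28 and 71 without control replicates 1, 2 and 3, 109, 137 and 98 without 1-g replicates 1, 2 and 3, and 116, 140 and 70 without 2-g replicates 1, 2 and 3. Quantile normalization, the mean of the clusters of a gene and a prior from the named genes kept both counts within 1.5 times. The count of 0 between μ-g and 1-g was 0 in every alternative. Of the 74 called genes that the rule names, none changed sign in any of the 22 alternatives. Since no called gene had groups that overlap, a fit that leaves out 1 array or changes only the spread could not have changed a sign.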

Other observations

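Some single genes were chosen after the data were seen. Cirbp, the cold-inducible RNA-binding protein, had 8.41, 8.67 and 8.65 in μ-g, against 9.01, 9.37 and 9.05 in control, lower on all 3 μ-g arrays without passing (log2 FC −0.57, SE 0.12, adjusted p = 0.0602), and its log2 FC against control was −0.58 in 1-g and −0.38 in 2-g. Actb, beta-actin, had 14.12, 14.14 and 14.16 on the μ-g arrays and 14.12, 14.11 and 14.17 on the control arrays, with a log2 FC of 0.00 (SE 0.04). The 58 measured heat shock and chaperone genes had a median of 0.03, and Hspa13 was the call among them, where 0.823% of all genes were called.

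Enzymes that use 2-oxoglutarate and oxygen, the class of the Egln hydroxylases, had members on both sides. Of 50 measured, Egln1 fell and Phf8 rose, where 0.823% of all genes were called, and the median was 0.02. At an unadjusted p under 0.05, 12 were higher and 8 lower, against 9.94% higher and 4.1% lower of all genes. The collagen-modifying Plod1 and P3h3 had −0.30 and −0.18 (adjusted p = 0.0637 and 0.123), while the demethylases Phf2 and Fto had 0.28 and 0.17 (adjusted p = 0.0808 and 0.154). Olfactory and vomeronasal receptors, which these cells are not known to use, had a median of 0.01 over 1193 genes with 0 calls in limma. At an unadjusted p under 0.05, 28 of them were higher and 7 lower, under both shares of all genes. Gene sets of the proteasome (48 genes), of DNA replication (49) and of amino acid transport (47) had medians of −0.03, −0.01 and 0.02 with 0 calls. At an unadjusted p under 0.05, 2, 2 and 3 of their genes were higher and 1, 2 and 1 lower, beside the same shares of all genes.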
